A study of Mus musculus with 4 samples.

Results

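The calprotectin genes S100a8 and S100a9 and the stefin A genes Stfa1, Stfa2, Stfa3 and Stfa2l1 are 6 of the 24873 genes with a value in each library. The 6 genes were chosen by their measured values in the same comparison that is described here, so the difference between the groups is a description of them and was given no test. RNA-Seq was performed on CD31+CD45- cerebral cells of mice with the genotype Cdh5cre;Mgpflox/flox, also written VE-cadherin cre/ERT2Mgp fl/fl, in which a Cre under the VE-cadherin promoter removes Mgp from endothelial cells once tamoxifen activates it. The control group (No Tamoxifen) and the tamoxifen group (Tamoxifen treated, 75 mg/kg daily for 5 days) had 2 libraries each, made from cells pooled from 3 mice. In the paper tamoxifen was given at 10 weeks of age, and the cells for RNA-Seq were taken on day 9 after treatment. Both groups carried both alleles, and tamoxifen-treated mice without the floxed gene were not analysed here, so effects of the drug and of the deletion cannot be told apart. The sample labels name the cells Brain tdTomato+, whereas the methods describe a sort on CD31 and CD45.

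Values are normalized counts, read counts that the authors divided by 1 factor per library. The reads on genes came to 37475154 and 41025014 in control libraries 1 and 2, and to 35387438 and 49799321 in tamoxifen libraries 1 and 2. A single read was worth 1.37 and 1.25 normalized counts in controls and 1.08 and 0.719 after tamoxifen. Log2 fold changes are differences of log2(normalized count + 1), on which low genes change by less than their true ratio. For the members and for low genes the ratio of pooled reads, tamoxifen over control after scaling, is given with its 95% counting interval. That interval covers counting error only. A gene with 0 reads in both control libraries is compared with a floor of 3 reads over that group. The fold against this floor is called its lower bound, although its counting interval begins below that value. Other genes were tested with limma and Benjamini-Hochberg adjustment, and a gene is said to have risen or fallen at an adjusted p under 0.05 with a log2 fold change beyond 1 in either direction. Genes said to have the highest counts of a list are the 3 with the largest mean over all 4 libraries, with no correction for length, and need not be the highest in either group. Of 20485 genes tested, 5867 (28.6%) rose and 3284 (16.0%) fell. An exact permutation test of 2 libraries against 2 cannot give a two-sided p below 0.333, and the limma p-values draw on a spread shared across genes; they measure only how far pools of mice differ.

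Mgp, the deleted gene, had 1094 and 1352 normalized counts in controls and 945 and 909 after tamoxifen. The tamoxifen values were both under the control values, yet the log2 fold change of -0.39 (SE 0.18) did not pass the test (limma, adjusted p = 0.0986). This fold change became 0.079 when each library was rescaled to the same total. By real-time PCR, another measure, the paper reports a progressive loss of Mgp RNA in sorted cerebral cells after tamoxifen. Counts over a whole gene do not show whether a part of it was deleted. Pecam1, which encodes CD31, had 83681 and 88796 normalized counts in controls and 15987 and 8973 after tamoxifen (log2 fold change -2.85, SE 0.31, limma adjusted p = 0.000181). All 12 listed endothelial genes fell, beside 16.0% of all tested genes, with a median log2 fold change of -2.91 beside 0.05 over all tested genes. Flt1, Kdr and Cldn5 had the highest counts of them. The summed level of the 12 was 1135920 and 1131050 normalized counts in controls and 198421 and 101278 after tamoxifen. Endothelial markers were thus well detected in every library, at lower levels in the tamoxifen group. Ptprc, which encodes the CD45 antigen that the sort was to leave out, had 50.7 and 83.9 normalized counts in controls and 1423 and 1119 after tamoxifen (log2 fold change 4.25, SE 0.33, limma adjusted p = 4.99e-05). In bulk RNA, fewer cells of a type and less RNA per cell cannot be told apart.

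Calprotectin is a complex of the S100a8 and S100a9 proteins, small calcium-binding proteins that also bind zinc and manganese and so withhold these metals from microbes. It fills the cytosol of neutrophils, is made by monocytes as well, and acts outside the cell as an alarm signal through receptors such as TLR4 and RAGE. Stefin A proteins are small inhibitors of papain-like cysteine cathepsins inside the cell; the mouse carries a cluster of such genes where humans have a single CSTA gene, and several of them are known from neutrophils and their precursors in bone marrow. Neither family is a defining feature of brain endothelium.

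S100a8 encodes the smaller subunit of calprotectin. It had 47.9 and 45.1 normalized counts in controls, from 35 and 36 reads, and 19598 and 14806 after tamoxifen, from 18083 and 20595 reads. Both control libraries were low and nearly equal, both tamoxifen libraries were high, and the groups did not overlap. The group means were 46.5 ± 2.04 and 17202 ± 3389 normalized counts (SD, n = 2), with a log2 fold change of 8.49 and a pooled ratio of 360 (95% counting interval 285 to 461).

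S100a9 encodes the larger subunit, whose long tail takes part in metal binding. It had 84.9 and 80.1 normalized counts in controls, from 62 and 64 reads, and 35787 and 28642 after tamoxifen, from 33020 and 39842 reads. Its pattern followed that of S100a8, low in both control libraries and high in both tamoxifen libraries. The group means were 82.5 ± 3.41 and 32215 ± 5052 (SD, n = 2), with a log2 fold change of 8.58 and a pooled ratio of 382 (95% counting interval 321 to 459). By normalized count, with no correction for gene length, S100a9 ranked 60 and 72 among all listed genes in tamoxifen libraries 1 and 2, against 12390 and 12615 in controls. S100a8 ranked 191 and 257 after tamoxifen and 13839 and 14006 in controls. Together the pair made up 0.144% and 0.121% of all normalized counts after tamoxifen, and 0.000259% and 0.000244% in controls.

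The stefin A genes were close to undetected in the control group. Stfa1 had 0 and 5.01 normalized counts there, from 0 and 4 reads, and 669 and 544 after tamoxifen, from 617 and 757 reads. Stfa2 had 1.37 and 3.75 in controls, from 1 and 3 reads, and 1868 and 1319 after tamoxifen, from 1724 and 1835 reads. In both genes the tamoxifen libraries stood far above the control libraries, and the order of the control libraries rests on a handful of reads. Stfa3 had 2.74 and 1.25 in controls, from 2 and 1 reads, and 988 and 783 after tamoxifen, from 912 and 1089 reads. Stfa2l1, a stefin A gene named for its likeness to Stfa2, had 2.74 and 0 in controls, from 2 and 0 reads, and 1473 and 1048 after tamoxifen, from 1359 and 1458 reads. No stefin A gene overlapped between the groups, and the gaps covered more than 2 orders of magnitude.

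With 4, 4, 3 and 2 reads over both control libraries, the size of the difference is known only loosely for Stfa1, Stfa2, Stfa3 and Stfa2l1. The pooled ratio of Stfa1 was 227 (95% counting interval 88.5 to 834) and that of Stfa2 was 588 (229 to 2159). For Stfa3 it was 441 (151 to 2139), and for Stfa2l1 it was 931 (257 to 7690). These intervals overlap one another and hold the ratios of S100a8 and S100a9, so no stefin A gene differed from the others, or from the calprotectin genes, in fold beyond counting error. The log2 fold changes were 7.95, 8.87, 8.25 and 9.33 in the same order. The filter on low values, a mean of 10 or more over the 4 libraries, was passed by all 6 genes, but the 4 stefin A genes passed it only through the tamoxifen libraries, where a gene so low in the controls had to be high. Both tamoxifen libraries lay above both control libraries in all 6 genes, which the choice of the genes fixed, and in 43.1% of all tested genes.

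**Figure D1:**
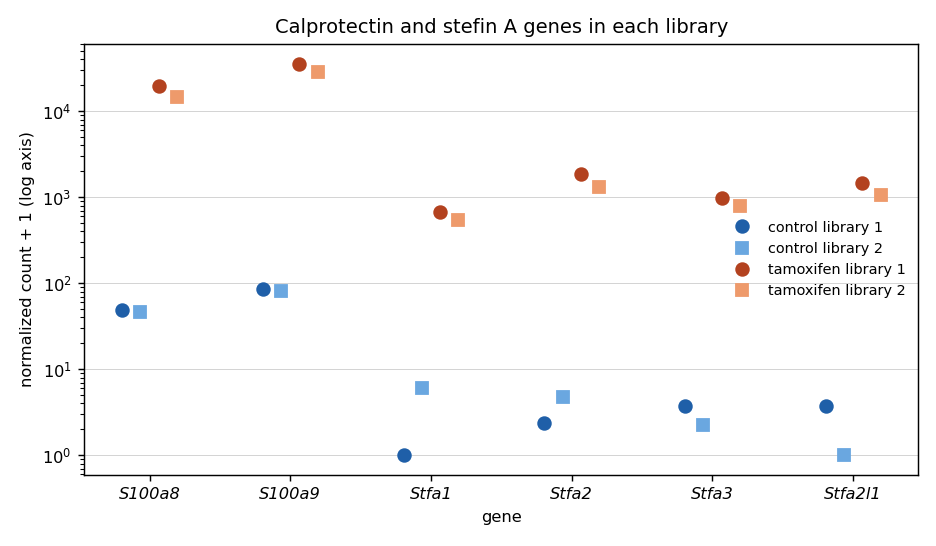
Normalized count + 1 (log axis) of the 6 genes, with 1 point for each library: blue for control, orange and red for tamoxifen. S100a8 and S100a9 lie between 45.1 and 84.9 normalized counts in controls and between 14806 and 35787 after tamoxifen, and the stefin A genes between 0 and 5.01 and between 544 and 1868.

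The 6 genes also shared their order between the tamoxifen libraries. Each was higher in tamoxifen library 1 than in tamoxifen library 2, by 1.32 times for S100a8 (95% counting interval 1.30 to 1.35) and 1.25 times for S100a9 (1.23 to 1.27). The stefin A ratios were 1.23 for Stfa1 (1.10 to 1.37), 1.42 for Stfa2 (1.33 to 1.51), 1.26 for Stfa3 (1.15 to 1.38) and 1.41 for Stfa2l1 (1.30 to 1.51). All 6 intervals lay above 1, which says little of these genes, since the interval did not hold 1 in 78.5% of 10279 other genes with a tamoxifen mean of 500 or more. On the log2 scale the difference between these libraries was between 0.30 and 0.50 in the 6 genes. Over tested genes with that mean its median was 0.13, its 75th percentile 0.27 and its 5th and 95th percentiles -0.71 and 0.58. The 6 genes thus lie within the range of genes at such levels, though all above the 75th percentile. The summed endothelial list was 1.96 times higher in tamoxifen library 1, and the 3 neutrophil lists described further on were 1.34 to 1.42 times higher there. With only 2 libraries, any part of cell makeup in this difference was not tested.

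The ratio between the calprotectin genes was compared within each library. Per kilobase of the longest annotated transcript (639 bases for S100a8 and 869 for S100a9), the ratio of S100a8 to S100a9 was 0.768 in control library 1 (95% counting interval 0.492 to 1.18) and 0.765 in control library 2 (0.494 to 1.17). It was 0.745 in tamoxifen library 1 (0.731 to 0.758) and 0.703 in tamoxifen library 2 (0.691 to 0.715). The tamoxifen libraries differed from each other in this ratio beyond counting error, and both lay inside the wide control intervals. No scaling between libraries enters these ratios. The control ratios rest on 35 to 64 reads of each gene, so a change in the balance of the pair within those intervals could not have been seen.

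The make-up of the stefin A reads was similar after tamoxifen, where 4612 and 5139 reads fell on the 4 genes. Stfa2 took 37.4% and 35.7% of them, and Stfa2l1 29.5% and 28.4%. Stfa3 took 19.8% and 21.2%, and Stfa1 13.4% and 14.7%. The control libraries held 5 and 8 stefin A reads, too few for such shares. Summed over the 4 genes, the level was 6.85 and 10.01 normalized counts in controls and 4998 and 3694 after tamoxifen.

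Per kilobase of the longest transcript, the tamoxifen libraries placed S100a9 first, at 41182 and 32960 normalized counts per kilobase, and S100a8 next, at 30670 and 23170. The stefin A genes came well below, with Stfa2 at 3109 and 2195 normalized counts per kilobase and Stfa2l1 at 2659 and 1892. Stfa3 followed at 1579 and 1251, and Stfa1 was last at 788 and 641. Within each tamoxifen library Stfa2 stood above Stfa2l1 on this length, by 1.17 times (95% counting interval 1.09 to 1.26) and 1.16 times (1.08 to 1.24). The order of these 2 genes depends on the length taken, with ratios of 1.04 (0.972 to 1.12) and 1.04 (0.967 to 1.11) per kilobase of the canonical transcript and 0.835 and 0.828 per kilobase of merged exons, so none is given. All other neighbours kept their order in both libraries under all 3 lengths. In the control libraries S100a9 stood at 97.7 and 92.2 and S100a8 at 75.02 and 70.5 normalized counts per kilobase, and the stefin A genes, at 6.25 or less, have no order there.

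In GRCm39 (GENCODE release 39) S100a8 lies on the plus strand of chromosome 3 from 90567118 to 90578128, and S100a9 on the minus strand from 90599931 to 90603071. The pair spans 35.95 kb with no other listed gene inside it, and the canonical transcript of each has 3 exons. Within 200 kb on either side, 13 other genes were tested, of which 4 rose, 4 fell and 5 were not called. Over all tested genes 28.6% rose and 16.0% fell, so the share that rose is near that of all genes. The share that fell is above that of all genes, but rests on few genes and was given no test. The 4 that rose were S100 genes, of which S100a4, S100a5 and S100a7a passed the filter only through the tamoxifen libraries. S100a6, a calcium-binding protein of many growing cells, rose from 89.0 and 130 to 6839 and 5479 normalized counts (log2 fold change 5.82, SE 0.24, limma adjusted p = 5.53e-06), a ratio of 54.5 (95% counting interval 46.8 to 63.8). S100a4, known from motile and mesenchymal cells and from leukocytes, had 1.37 and 2.50 normalized counts in controls and 231 and 141 after tamoxifen, a ratio of 90.1 (30.6 to 439). S100a5 and S100a7a reached no more than 45.5 normalized counts in any library, with ratios of 10.8 (4.46 to 34.3) and 18.1 (5.97 to 89.4). S100a7a ends just before the start of S100a8 on the same strand, and had 40.1 and 32.4 normalized counts after tamoxifen. S100a13 and S100a16 at the far end of the cluster fell, with log2 fold changes of -2.17 (SE 0.23) and -1.68 (SE 0.16). Leaving out a tamoxifen library ended the calls of S100a5 (limma adjusted p = 0.223 and 0.181) and, without tamoxifen library 2, of S100a13 (0.0544), and not their direction.

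Over the S100 family without the calprotectin genes, 13 genes were listed and 11 tested. Of these, 6 rose and 2 fell, but S100a4, S100a5 and S100a7a passed the filter only through the tamoxifen libraries, so the count and a median over the tested genes are not set against all genes. Of the 8 genes with a control mean of 10 or more, 3 rose and 2 fell. With either tamoxifen library left out 4 of the 11 rose. The median log2 fold change was 2.25 over all 13 genes with no filter, and 0.44 over the 7 genes with a mean of 100 or more. The 2 genes that rose away from the chromosome 3 neighbourhood were S100a10, the annexin A2 partner, at 427 and 527 normalized counts in controls and 3389 and 2697 after tamoxifen, and S100b, a glial gene on chromosome 10, at 174 and 314 and at 781 and 1590. S100b lost its call with either tamoxifen library left out (limma adjusted p = 0.0609 and 0.12). The family summed to 11526 and 15132 normalized counts in controls and to 18073 and 15671 after tamoxifen, with the highest counts in S100a16, S100a6 and S100a11. S100a8 and S100a9 are not in these sums and added 133 and 125 normalized counts in controls and 55385 and 43448 after tamoxifen.

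**Figure D2:**
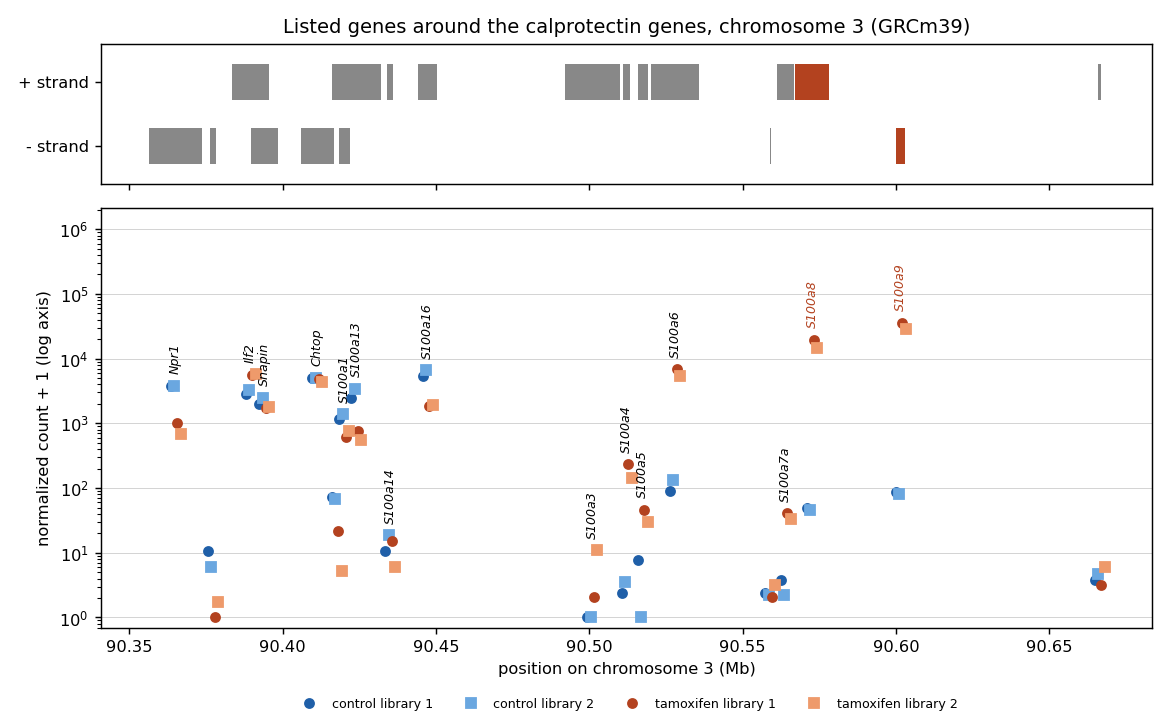
Listed genes within 200 kb of S100a8 and S100a9 on chromosome 3, drawn to scale by strand (top, both genes in red), and their normalized count + 1 in each library (bottom, log axis, points set slightly apart at each gene's midpoint, protein-coding genes named). S100a6, S100a4, S100a5 and S100a7a lie higher after tamoxifen than in controls, S100a5 and S100a7a at no more than 45.5 normalized counts, and S100a13 and S100a16 lie lower.

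The stefin A genes lie on chromosome 16 of GRCm39 and span 298.7 kb. Stfa2l1 (35977176 to 35982332) and Stfa1 (36093823 to 36105817) are on the plus strand, and Stfa2 (36224305 to 36241288) and Stfa3 (36270893 to 36275884) on the minus strand. Between them lie 6 other listed genes, all with both tamoxifen values above both control values, as in 43.1% of all tested genes. Of these, 3 further stefin-like genes passed the filter, but only through the tamoxifen libraries, so their calls support nothing beyond the values. Cstdc4 had 1.37 and 5.01 normalized counts in controls and 1030 and 756 after tamoxifen, a ratio of 264 (95% counting interval 113 to 815). Cstdc5 had 1.37 and 1.25 and then 1055 and 707, a ratio of 647 (179 to 5343), and Cstdc6 had 1.37 and 0 and then 165 and 144, a ratio of 233 (41.6 to 9240). These genes were, like the 4 stefin A genes around them, near 0 in the control group only. The remaining gene, the pseudogene Gm10913, had 2.74 and 3.75 and then 9.75 and 12.9 normalized counts. Csta2 and Csta3 had 0 reads in both control libraries, and 13.0 and 20.1 and 16.3 and 20.1 normalized counts after tamoxifen. Against a floor of 3 reads over the control group they were 8.81-fold and 9.47-fold higher. Their 95% counting intervals begin at 6.84 and 7.38.

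Of 8 tested flanking genes within 200 kb of the span, 3 rose, 1 fell and 4 were not called, shares near the 28.6% and 16.0% of all tested genes, and every one of them had at least 13.7 normalized counts in each control library. The wider stefin and cystatin family, without the 4 genes, had 9 genes listed and 7 tested, of which 4 rose (Cstdc4, Cstdc5, Cstdc6 and Cst7) and 3 were not called. All 4 passed the filter only through their tamoxifen values, so neither the count nor a median over the tested genes is given as support. Over all 9 genes, with no filter, the median log2 fold change was 4.26. That median is the value of Csta3, which had 0 reads in controls and was 9.47-fold higher against the floor. It therefore depends on the 1 that is added to each value and does not measure the size of the change. Cst7 (cystatin F, an inhibitor of leukocyte cathepsins) on chromosome 2 had 0 reads in the control group and 121 and 60.4 normalized counts after tamoxifen. Against a floor of 3 control reads Cst7 was 43.2-fold higher, with a 95% counting interval that begins at 34.8. Cst3 (cystatin C, a secreted inhibitor made by many brain cells), Cstb (stefin B, found in most cells) and Cst6 were not called, and the sign of the Cst3 difference changed with the scaling. The family summed to 22265 and 30225 normalized counts in controls and 24376 and 31375 after tamoxifen, most of it Cst3 (19600 and 27724 after tamoxifen); Cstb and Cstdc4 had the next highest counts. Against that background of cystatin RNA in both groups, the 4 stefin A genes held 3694 to 4998 normalized counts after tamoxifen and at most 10.01 in controls.

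**Figure D3:**
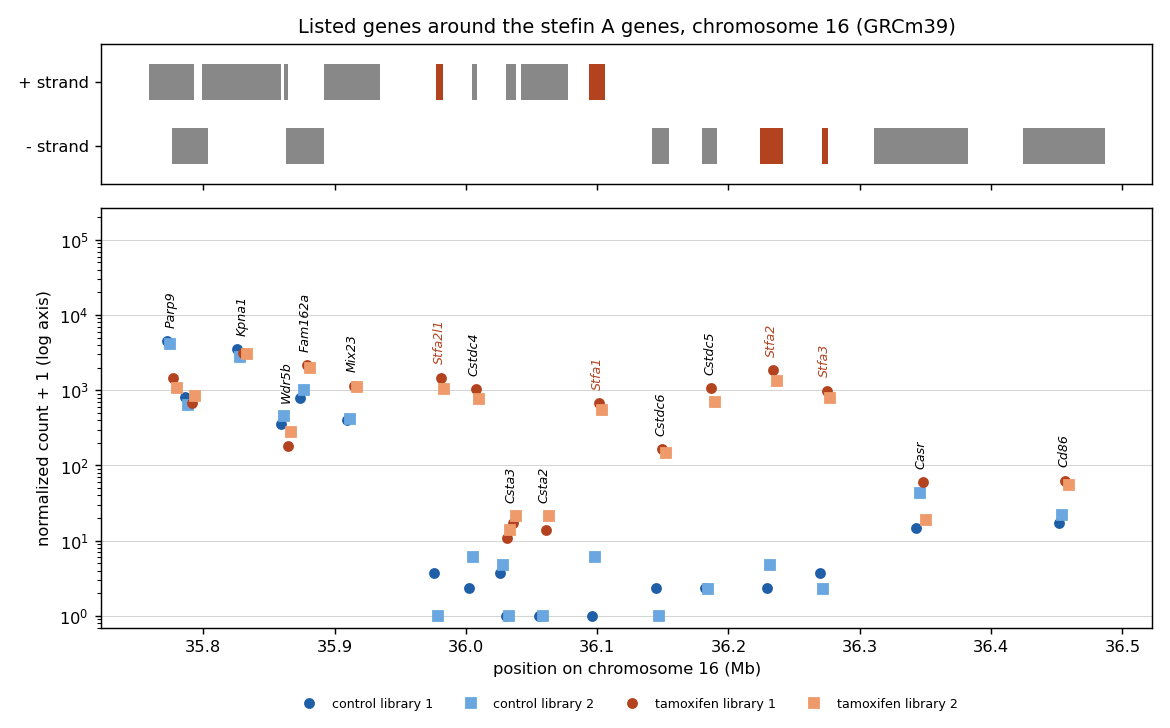
Listed genes within 200 kb of the stefin A genes on chromosome 16, drawn to scale by strand (top, the 4 genes in red), and their normalized count + 1 in each library (bottom, log axis, points set slightly apart at each gene's midpoint, protein-coding genes named). From Stfa2l1 to Stfa3 every gene is at or below 5.01 normalized counts in controls and higher after tamoxifen, while flanking genes have reads in both groups.

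The genes of the stefin A cluster are close copies, and the counting of reads that match several genes is not given in the sources used here. Their coding sequences (GENCODE canonical transcripts) were aligned in pairs. Stfa2 and Stfa2l1 were identical at 96.44% of 309 aligned bases, and Stfa1 and Cstdc5 at 97.94% of 291. The other pairs among the 4 genes were identical at 79.38% to 84.54%, and S100a8 and S100a9 at 62.92%. Of all 50-base windows in the canonical transcript, 24.0% in Stfa2l1, 17.5% in Stfa1 and 14.6% in Stfa2 occur also in another annotated transcript, and 0% in Stfa3, S100a8 and S100a9. With 100-base windows the share was 0.4% in Stfa1 and 0% in the other 5 genes. The values of Stfa1, Stfa2 and Stfa2l1 are therefore uncertain by whatever share of reads could be split or dropped between near copies, whereas Stfa3, S100a8 and S100a9 are free of such windows. This holds more strongly for Cstdc4, Cstdc5 and Cstdc6, with 30.8%, 33.6% and 33.7% of 50-base windows and 10.6%, 13.1% and 13.5% of 100-base windows shared, and for Csta2 (39.2% and 17.9%), whose values above carry the same doubt. The last 90 coding bases of each gene show where the copies can be told apart. They are given 5′ to 3′, with capitals at the 34 positions at which the 4 genes are not all the same.
Stfa1: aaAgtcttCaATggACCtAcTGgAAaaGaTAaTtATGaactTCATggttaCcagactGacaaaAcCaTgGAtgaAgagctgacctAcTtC
Stfa2: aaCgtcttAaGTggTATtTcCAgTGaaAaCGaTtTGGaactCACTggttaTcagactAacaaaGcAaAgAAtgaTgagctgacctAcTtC
Stfa3: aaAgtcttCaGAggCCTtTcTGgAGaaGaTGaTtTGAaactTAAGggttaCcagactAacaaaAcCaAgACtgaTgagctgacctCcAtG
Stfa2l1: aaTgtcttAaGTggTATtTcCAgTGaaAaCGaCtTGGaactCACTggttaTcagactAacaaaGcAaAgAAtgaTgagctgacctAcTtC
Over these bases Stfa2 and Stfa2l1 differ at 2 positions, and Stfa1 and Stfa2l1, the least alike, at 27.

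The promoters of the members were also compared, taken as the 250 bases before each gene's start (RefSeq, GRCm38.p6). All 6 genes were found there. The longest run shared by the 4 stefin A promoters was 15 bases, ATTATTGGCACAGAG, at 242 to 247 bases before the start. It was picked as the longest run common to these 4 promoters, so its presence in them was fixed. It occurs in 5 of 32851 promoters (0.0152%), the other being that of Cstdc5. Any given run of 15 bases is rare, and these genes are close copies, so the share says little. A part of this run in the levels of the genes was not tested. Stfa2 and Stfa2l1 share a run of 65 bases, and the remaining stefin A pairs runs of 16 to 21. The promoters are shown 5′ to 3′ along each gene, with the shared run in capitals; Stfa1 and Stfa2l1 are on the plus strand, Stfa2 and Stfa3 on the minus strand.
Stfa1: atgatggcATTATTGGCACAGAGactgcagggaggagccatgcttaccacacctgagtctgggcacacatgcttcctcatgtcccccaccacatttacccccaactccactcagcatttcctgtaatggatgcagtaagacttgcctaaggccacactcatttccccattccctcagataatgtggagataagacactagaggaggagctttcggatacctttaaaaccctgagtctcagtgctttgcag
Stfa2: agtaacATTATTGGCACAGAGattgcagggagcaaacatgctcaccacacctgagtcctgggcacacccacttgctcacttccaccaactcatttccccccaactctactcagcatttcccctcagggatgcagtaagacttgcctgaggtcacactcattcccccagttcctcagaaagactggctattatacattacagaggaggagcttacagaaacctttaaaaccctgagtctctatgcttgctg
Stfa3: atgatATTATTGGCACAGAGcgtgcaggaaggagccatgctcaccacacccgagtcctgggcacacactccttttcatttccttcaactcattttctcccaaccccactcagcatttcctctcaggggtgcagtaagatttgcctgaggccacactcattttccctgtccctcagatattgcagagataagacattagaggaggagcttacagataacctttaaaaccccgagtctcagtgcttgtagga
Stfa2l1: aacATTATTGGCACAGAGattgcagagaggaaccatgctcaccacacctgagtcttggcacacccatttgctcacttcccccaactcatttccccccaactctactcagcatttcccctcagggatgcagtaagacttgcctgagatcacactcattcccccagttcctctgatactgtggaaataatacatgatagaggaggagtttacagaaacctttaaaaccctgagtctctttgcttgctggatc

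The S100a8 and S100a9 promoters had no shared run longer than 11 bases. Both strands of all 6 promoters were searched for short motifs of factors and elements of granulocyte promoters, which can overlap one another. GAGGAA, a core of PU.1 sites, was present in 5 of the 6, all but S100a9, and in 23.3% of all promoters. TTGCNNAA, a core of C/EBP sites, was present in S100a9 and Stfa1 and in 9.56% of all promoters. TATAAA was present in S100a8 alone of the 6 and in 12.4% of all promoters. A match of letters is a description of the sequence only. S100a8 (plus strand) and S100a9 (minus strand) are shown with these matches in capitals, read on either strand.
S100a8: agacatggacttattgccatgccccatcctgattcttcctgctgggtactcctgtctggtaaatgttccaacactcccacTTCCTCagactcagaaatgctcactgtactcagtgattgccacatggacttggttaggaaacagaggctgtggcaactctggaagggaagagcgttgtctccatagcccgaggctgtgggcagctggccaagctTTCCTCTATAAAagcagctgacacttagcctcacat
S100a9: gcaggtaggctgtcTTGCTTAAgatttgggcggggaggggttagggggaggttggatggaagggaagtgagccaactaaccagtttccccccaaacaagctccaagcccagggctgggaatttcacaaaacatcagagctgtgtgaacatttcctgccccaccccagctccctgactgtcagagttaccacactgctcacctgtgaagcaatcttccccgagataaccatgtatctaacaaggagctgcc

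Receptors and cofactors through which extracellular calprotectin acts were mixed, and their calls depend on the processing. Of 7 such genes tested, 1 rose, 3 fell and 3 were not called (28.6% of all tested genes rose and 16.0% fell), with a median log2 fold change of -0.47 beside 0.05 over all tested genes. With libraries at equal totals 3 rose and 1 fell (median -0.00065), and with either tamoxifen library left out 1 rose and none fell. Bsg (basigin, an abundant endothelial surface protein), Myd88 (the adaptor of Toll-like receptors) and Cd36 (a scavenger receptor, lowest of the 7 in controls) had the highest counts. Cd36 rose from 8.22 and 18.8 to 709 and 589 normalized counts (log2 fold change 5.58, SE 0.49, limma adjusted p = 8.41e-05), and Bsg fell from 657110 and 725288 to 147564 and 68520 (limma adjusted p = 0.00503, and 0.0544 and 0.0832 without a tamoxifen library). The list summed to 659152 and 727368 normalized counts in controls and to 150045 and 70558 after tamoxifen.

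Papain-like cysteine cathepsins, the class of enzymes that stefins inhibit, were abundant in both groups. Of 10 tested, 2 rose, 3 fell and 5 were not called, beside 28.6% and 16.0% of all tested genes that rose and fell, with a median log2 fold change of -0.08 beside 0.05 over all tested genes. The median of the list was above 0 under both other scalings of the libraries (0.40 with equal totals, where 4 rose and 1 fell, and 0.09 with quantile normalization, where 3 rose and 3 fell). Their sum was 56048 and 60820 normalized counts in controls and 52571 and 47557 after tamoxifen. Ctsl, Ctsh and Ctsb had the highest counts. Ctsh fell from 22843 and 24421 to 5164 and 3375 normalized counts, while Ctsl had 10533 and 11308 and then 19941 and 18068, higher in both tamoxifen libraries but short of the size needed for a call (log2 fold change 0.80); Ctsl was called under both other scalings (1.27 with equal totals and 1.43 with quantile normalization). The summed level of the 10 listed cathepsins thus stayed within 1.5 times between the groups, with single genes moving both ways. The summed stefin A level went from at most 10.01 to at least 3694 normalized counts. Both are sums of RNA, and inhibition of these cathepsins was not tested.

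Neutrophil genes outside both families were higher after tamoxifen as well. The primary granule list (highest counts in Mpo, Prtn3 and Elane) rose in 5 of 5 genes, with a median log2 fold change of 8.61 and a sum of 19.2 and 12.5 normalized counts in controls and 10261 and 7239 after tamoxifen. In the secondary granule list 6 of 6 rose, with a median of 7.57 and a sum of 600 and 1111 and then 59069 and 41795; Ngp, Ltf and Lcn2 had the highest counts. In the list of tertiary granule and mature neutrophil genes 8 of 9 rose, with a median of 7.05 (6.54 with Ly6g at its lower bound) and a sum of 2008 and 1781 and then 12724 and 9510. Cxcr4, Mmp9 and Retnlg had the highest counts, and Cxcr4, the gene not called, made up most of the control sum (1938 and 1676). All 5 primary granule genes and 5 of the 8 called tertiary genes had a control mean under 10. They passed the filter only through the tamoxifen libraries, so the counts and medians of these lists are not set against all genes. Of the secondary granule genes, 0 passed the filter in this way. Over all tested genes 28.6% rose and the median was 0.05. These lists hold none of the 6 genes, and whether their RNA came from the same cells as that of calprotectin was not tested.

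Ngp, a secondary granule protein, had 75.3 and 47.6 normalized counts in controls and 28708 and 19699 after tamoxifen. Ly6g, the surface antigen that defines mouse neutrophils, had 0 reads in both control libraries and 164 and 134 normalized counts after tamoxifen, at least 74.2-fold higher. Cebpe, a factor of late granulocyte maturation, also had 0 reads in controls and was 145-fold higher against that floor. Its 95% counting interval begins at 118. Of 9 granulocyte transcription factors 8 rose (4 with either tamoxifen library left out) and 1, Cebpd, fell, beside 28.6% and 16.0% of all tested genes; Cebpe and Gfi1 passed the filter only through the tamoxifen libraries. The count that rose is therefore not a fair match for the share of all genes. The list had a median of 3.98 and a sum of 3635 and 2985 normalized counts in controls and 5897 and 4358 after tamoxifen. Cebpd, Myb and Runx1 had the highest counts. Factors of this list, Irf8, Myb and Runx1 among them, need not be particular to granulocytes. Of 5 pan-leukocyte genes 4 rose, beside 28.6% of all tested genes, with a median of 4.25 and a sum of 4832 and 5020 and then 17509 and 12868, with the highest counts in Lcp1, Coro1a and Laptm5. The part of leukocytes in the levels of the 6 genes was not tested.

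Genes of similar profile over the 4 libraries were sought by the Euclidean distance between mean-centred log2(normalized count + 1) values, among 13662 other genes whose mean was 100 normalized counts or more. Genes near 0 in controls entered this search only through their tamoxifen values, and their distance is set by the 1 that is added to each value, so no distance or order is given and the genes found are described by their values alone. Ctsg, a neutrophil granule protease, had 1.37 and 1.25 normalized counts in controls and 1082 and 777 after tamoxifen. Tdh, a threonine dehydrogenase, went from 4.11 and 5.01 to 2319 and 1699 normalized counts, and Crabp1, a retinoic acid-binding protein, from 2.74 and 3.75 to 2087 and 1637. Zfp936, Ear1 (an eosinophil ribonuclease), Fcrla (an Fc receptor-like protein of B cells) and Nr0b1 (an orphan nuclear receptor) had 0 reads in both control libraries and 316 to 452 normalized counts after tamoxifen. Against a floor of 3 reads over the control group each was 179-fold higher or more. Their 95% counting intervals begin at 145 or above.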

How the data were processed

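Reads were aligned by the authors to GRCm39 (STAR 2.7.10a), with counting in the same step, removal of low genes and normalization in DESeq2 1.36.0. The deposited signal is a normalized count, the reads of a gene over 1 factor per library. Columns lettered C were taken for control and those lettered A for tamoxifen, although the labels give no A. Whole reads were recovered from the value of 1 read, with 100% of values within 0.01 of a whole number. limma 3.58.1 (eBayes with trend, log2(value + 1), mean of at least 10 normalized counts) was run in R 4.3.3 on all 4 libraries. Alternatives were other pseudocounts, filters and scalings, no trend, a replicate block, DESeq2 1.42.0 and edgeR 4.0.16 run on the recovered reads, and leaving out each library. GENCODE release 39 matched 24451 of 24873 symbols. Named by rule were the 6 genes, the 3 genes of each list with the highest mean over all libraries, called S100 and stefin or cystatin genes, and the 5 genes of nearest profile. Pecam1, Ptprc, Ly6g, Cebpe, S100a7a and the Csta genes were named for their role or after their values were seen. The members and lists were chosen with earlier results of these data known.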

Additional observations from a re-analysis of the deposited data

How the results depend on the processing

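The direction of all 6 genes was the same under every alternative run. The log2 fold changes ranged from 8.29 to 8.95 for S100a8, 8.42 to 9.05 for S100a9, 6.43 to 9.24 for Stfa1, 7.72 to 9.37 for Stfa2, 6.99 to 8.84 for Stfa3 and 7.65 to 10.28 for Stfa2l1. Beyond the spread between replicates were S100a8 (8.95) and S100a9 (9.05) with libraries at equal totals, Stfa2 (7.72), Stfa3 (6.99) and Stfa2l1 (7.65) with a pseudocount of 5, which by construction lowers the fold of genes near 0, and Stfa3 with quantile normalization (7.32) and with DESeq2 (8.84); the cause was not tested for the last 2. The S100a8 to S100a9 ratio after tamoxifen was 0.709 and 0.670 per kilobase of merged exons, and 0.637 and 0.601 per kilobase of the canonical transcript, an alternative chosen after seeing the data, as was the order of Stfa2 and Stfa2l1 under 3 lengths. The main setting called 9151 genes in all. A filter at a mean of 100, with fewer genes tested, called 5934 (5920 of them also in the main setting), and leaving out a tamoxifen library, with fewer samples, called 4147 (4058 shared, without library 2) and 5024 (4862 shared, without library 1), whereas leaving out a control library called 8579 and 9700 (8173 and 8706 shared); the lone library was then assumed to vary like the other group. edgeR called 9241 and DESeq2 8739. Over the lists 84 genes were called in the main setting and 58 to 90, not all of them the same genes, under the alternatives. Equal totals moved the median of all genes by 0.47 and the share of called genes that rose from 64.1% to 79.7%, and quantile normalization moved them by -0.25 and to 47.2%, so folds near these shifts depend on the scaling. Among 43 named genes called, none changed direction and 12 lost the call, each with a tamoxifen library left out and some also under no trend, quantile normalization or a control library left out (Bsg, Cd68, Epx, Itga2b, Lcn2, Pf4, Ppbp, Prss34, S100a5, S100a13, S100b and Tmem119); 5 named genes that were not called changed sign: Mgp (0.079, equal totals), Cst3 (0.41 with equal totals, 0.71 with quantile normalization, -0.308 to 0.192 with a library left out), Cx3cr1 (-0.70 with quantile normalization, -0.404 to 0.605 with a library left out), Krt10 (-0.27) and P2ry12 (-0.55), both with quantile normalization. Of the named genes that were not called, 6 gained a call under some alternative (Csf1r, Ctsb, Ctsl, Krt10, Lcp1 and Sbsn). These alternatives include the adjusted p with no threshold on the fold. The counts of named genes leave out Ly6g, Cebpe, Gfi1, Ccr2, Mcpt8, Cpa3 and the genes of nearest profile, which were not followed 1 by 1. Replicate numbers do not pair the libraries by the labels, and deviations of same-numbered libraries correlated at 0.03 across genes. With the number as a block 9525 genes were called. Depth limits the control values of the stefin A genes, which rest on 0 to 4 reads a library.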

Other observations

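Lists of other cells that a sort could carry over also moved, and their part in the results was not tested. Over all tested genes 28.6% rose and 16.0% fell, with a median log2 fold change of 0.05, and 3030 and 2553 of 20485 rose without tamoxifen library 1 or 2. All 5 genes of the eosinophil, basophil and mast cell list rose (3 with either tamoxifen library left out), though Mcpt8, Prss34 and Cpa3 passed the filter only through the tamoxifen libraries, with a median log2 fold change of 6.19 (5.70 with Mcpt8, which had 0 reads in the control group, at its lower bound) and a sum of 19.2 and 83.9 normalized counts in controls and 6763 and 5051 after tamoxifen. Because Mcpt8, Prss34 and Cpa3 entered in this way, neither the count nor the median of this list is set against all genes. Prg2, the eosinophil major basic protein gene, had 5.48 and 17.5 normalized counts in controls and 5522 and 4161 after tamoxifen. Epx and Prss34 had the next highest counts over the 4 libraries, and Epx was above Prg2 in both control libraries. All 6 platelet and megakaryocyte genes rose, beside 28.6% of all tested genes, with a median of 2.86 and a sum of 396 and 676 and then 3242 and 2527, with the highest counts over the 4 libraries in Itga2b, Ppbp and Pf4; with either tamoxifen library left out none of the 6 was called, and under quantile normalization 2 were. Of 8 monocyte and macrophage genes 5 rose (2 with either tamoxifen library left out), 1 of them (Ccr2) past the filter only through the tamoxifen libraries, beside 28.6% of all tested genes, with a median of 2.39 and a sum of 1125 and 2053 and then 5175 and 4218, with the highest counts over the 4 libraries in Csf1r, Cx3cr1 and Cd68.

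Microglia and keratinocytes are further cells in which S100 or stefin genes are known. Of 4 microglia genes 2 rose (1 with either tamoxifen library or control library 1 left out, with no trend or under quantile normalization), beside 28.6% of all tested genes, with a median of 1.13 that became -0.02 under quantile normalization, and a sum of 512 and 882 normalized counts in controls and 6337 and 6429 after tamoxifen. Most of the tamoxifen sum was Sall1, at 5478 and 5492 against 167 and 272 in controls; Tmem119 and P2ry12 had the next highest counts over the 4 libraries. Of 8 keratinocyte genes 5 were listed and 4 tested. Lor fell and 3 were not called (16.0% of all tested genes fell). The median was 0.85 (-0.21 under quantile normalization and 1.30 with equal totals), and the sum was 434 and 562 and then 299 and 324. With equal totals 2 of these genes rose, and 1 rose with no trend, with a replicate block or with DESeq2. Lor, Sbsn and Krt10 had the highest counts of the list over the 4 libraries. Ivl, a marker of keratinocyte maturation, had at most 3 reads in every library.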
